A study of Mus musculus with 3 samples.

Results

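LysoDC, the lysozyme-expressing dendritic cells of Peyer's patches, were described here as the lysozyme-high and C1q-high phagocytes without Cd4 transcripts and with few Ccr7 transcripts. A cell belonged to them when its barcode gave at least 500 detected genes and at most 10% mitochondrially encoded unique molecular identifiers (UMIs), when Lyz1, C1qa, C1qb and C1qc together made up at least 80 of 10000 UMIs, and when it held 0 Cd4 UMIs, fewer than 4 Ccr7 UMIs, fewer than 4 UMIs of the cell cycle genes Mki67, Top2a, Birc5 and Ube2c, and fewer than 3 Cd79a UMIs. In the Control library a cell also had to hold fewer than 3 Cxcl10 UMIs. These conditions chose 3412 of the 15434 cells that passed the quality limits, out of 15526 cell barcodes in all. They are measured values, so the levels of the rule's own genes are given as a description only.

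Peyer's patches are lymphoid follicles in the wall of the small intestine, where a specialised epithelium passes gut contents to the phagocytes beneath it. LysoDC are monocyte-derived cells of the subepithelial dome that take up such material, express lysozyme and carry MHC class II, and the lysozyme-positive macrophages beside them are their closest relatives. R848 (resiquimod) is a small molecule ligand of the endosomal RNA sensor Toll-like receptor 7, and CpG is DNA with unmethylated CpG motifs, a ligand of the endosomal DNA sensor Toll-like receptor 9. Ligands of these receptors are known to start an interferon response and an inflammatory cytokine response in the cells that carry them, and interferon released by such cells acts on their neighbours.

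The 3 libraries compared all came from female C57BL/6Rj mice with no genetic modification named in the labels. The R848 library pooled 90 Peyer's patches of 12 mice, 9 h after 10 µg R848 given intraperitoneally in PBS, and held 1138 LysoDC. The CpG library pooled 85 Peyer's patches of 12 mice, 9 h after 125 µg CpG by the same route, and held 841. The Control library pooled 88 Peyer's patches of 12 untreated mice and held 1433, so an effect of the injection itself cannot be told apart from that of the agonist. Live CD11c-enriched cells stained for CD11c, MHC class II, SIRPa, Bst2, CD4, CD11b, XCR1 and CD24 were sorted before 10x Chromium 3' sequencing, and MHC class II and CD4 protein were therefore part of the sort. Each group was 1 library, and differences between groups have no replicate check and no test: the intervals given are 95% intervals for counting error only.

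LysoDC made up 22.3% of the kept R848 cells (exact binomial interval 21.1 to 23.4), 16.7% of the kept CpG cells (15.7 to 17.8) and 27.0% of the kept Control cells (25.8 to 28.2), shares that depend on how the sorted fractions were gated and pooled. Their summed UMIs came to 14135962 in R848, 11284884 in CpG and 14762098 in Control, with a median of 12420, 13673 and 10279 UMIs per cell. The members lay well inside the lysozyme and C1q limit: the median sum was 307, 335 and 349 per 10000 UMIs, 10, 6 and 22 members stood between 80 and 100, and 6, 2 and 20 cells that met every other condition stood just outside, between 60 and 80. The Cxcl10 condition removed 58 lysozyme-high cells, with and without Cd4, from Control alone. Of the members, 29.4%, 40.1% and 5.09% held 1 to 3 Ccr7 UMIs. The rule itself caps Ccr7 in each member, so their summed level cannot show whether these UMIs came from free RNA, which was not tested. Libraries shared 33 (R848 and Control), 42 (CpG and Control) and 35 (R848 and CpG) barcodes, of which 2, 2 and 1 belonged to members of both.

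The label was checked against marker genes. Lyz1, the lysozyme gene that the rule used, stood at 12300 CPM (counts per 1e6 UMIs of the summed class) in R848, 15752 CPM in CpG and 17585 CPM in Control. The 4 given markers that the rule did not use were all present: Ccr2, the monocyte chemokine receptor, at 135, 214 and 249 CPM; Il22ra2, a soluble receptor that captures IL-22, at 966, 2959 and 3489 CPM; Tnnt1, a troponin T, at 91.2, 123 and 112 CPM; and Fpr2, a formyl peptide receptor, at 96.8, 133 and 72.3 CPM. Thinned to 2000 UMIs per cell, Il22ra2 was found in 60.9%, 88.5% and 92.3% of LysoDC, against 2.38% of 84, 3.45% of 29 and 18.5% of 379 Xcr1-positive cells of the same libraries, another dendritic cell type. At full depth those shares were 83.7%, 95.4% and 96.3% in LysoDC, with a median of 12420, 13673 and 10279 UMIs, and 3.57%, 10.3% and 43.8% in Xcr1-positive cells, with 10609, 11189 and 8441 UMIs. The closest class, lysozyme-high cells with at least 1 Cd4 UMI, held Il22ra2 in 37.1%, 56.1% and 62.7% of thinned cells. Its presence alone therefore does not mark LysoDC.

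Some defining markers of other cells were at or near 0. The cDC1 receptor Xcr1 stood at 0.495 CPM in R848, 0.620 CPM in CpG and 4.88 CPM in Control, with 2.40 CPM estimated from free RNA in Control. The cDC2 lectin Cd209a stood at 0.0707, 0.177 and 3.05 CPM, the blood monocyte marker Ly6c2 at 0.707, 0.532 and 0 CPM, and the monocyte gene F13a1 at 0 UMIs in all 3 libraries. Over whole lists, 8 epithelial markers summed to between 8.95 and 11.2 CPM and 8 T and NK cell markers to between 4.67 and 20.8 CPM over the 3 libraries. The macrophage, mature dendritic cell, B cell and proliferation lists hold genes that the rule itself limited (Cd4, Ccr7, Cd79a and the 4 cell cycle genes), so their sums are given without these. The other 6 Peyer's patch macrophage markers, of which Itgb5, Vcam1 and Sepp1 reached 20 CPM in each library, summed to 232, 265 and 296 CPM in LysoDC, against 513, 683 and 834 CPM in Cd4-positive lysozyme-high cells. The other 7 mature dendritic cell markers summed to 920.1, 634 and 727 CPM, against 6643, 8892 and 982 CPM in the cells outside both of these classes. Of these markers, Fscn1, Il4i1, Socs2 and Tmem123 reached 20 CPM in LysoDC of each library, and Ccl22 did so in R848. In 3 further lists a single gene reached 20 CPM: the neutrophil list summed to 54.1, 41.1 and 35.0 CPM with Csf3r alone reaching 20 CPM, 7 of the B and plasma cell markers to 168, 125 and 199 CPM with Cd79b alone, and the stroma and endothelium list to 101, 114 and 35.8 CPM with Pecam1 alone. The plasmacytoid dendritic cell list summed to 121, 144 and 152 CPM, with Ccr9 and Tcf4 above 20 CPM, and the other 4 proliferation markers to 17.0, 12.5 and 16.1 CPM. The cDC1 list summed to 290, 320 and 328 CPM, against 192, 194 and 1002 CPM in the cells outside both classes, with the lysosomal enzyme genes Naaa at 76.1, 116 and 98.7 CPM and Ppt1 at 195, 177 and 193 CPM in LysoDC. The cDC2 list summed to 99.7, 187 and 215 CPM, against 322, 336 and 943 CPM, with Plet1 at 32.3, 81.3 and 67.3 CPM, Clec4a4 at 23.98, 19.3 and 29.3 CPM and Ffar2 at 38.4, 73.1 and 83.9 CPM. The monocyte list summed to 264, 253 and 199 CPM, against 1829, 1824 and 2310 CPM. Plac8 stood at 47.1, 82.3 and 131 CPM and Treml4 at 25.8, 54.4 and 63.9 CPM. Ms4a4c ran the other way, at 185, 109 and 3.32 CPM. Pecam1, an adhesion molecule of endothelium and of many myeloid cells, stood at 100.1, 111 and 33.8 CPM, while the endothelial Cdh5 was under 1 CPM in each library. What part the cells behind these sums have in the differences below was not tested. Free RNA was estimated at 3.03%, 2.60% and 4.09% of the UMIs of a cell, from C1q UMIs in Ccr7-positive cells. C1q RNA made by those cells themselves would raise this estimate, so it may be too high.

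LysoDC were not uniform in MHC class II. After thinning to 2000 UMIs per cell, the summed UMIs of H2-Aa, H2-Ab1, H2-Eb1 and Cd74 fell into a low and a high group of cells in every library, and a limit of 20 UMIs, set after the values were seen, left 15 R848, 6 CpG and 18 Control cells between 15 and 19 and 8, 6 and 10 cells between 20 and 24. Below it were 187 R848 members (16.4%, exact interval 14.3 to 18.7), 101 CpG members (12.0%, 9.89 to 14.4) and 188 Control members (13.1%, 11.4 to 14.98). Among Cd4-positive lysozyme-high cells, chosen by the same conditions but with at least 1 Cd4 UMI, 87.4%, 83.4% and 81.9% were below it.

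The MHC class II-low members also differed from the others in genes that neither limit used. Timd4, a phosphatidylserine receptor of resident macrophages, stood at 18.6 CPM in MHC class II-low and 0.414 CPM in MHC class II-high members of R848, at 53.4 and 0.884 CPM in CpG, and at 71.1 and 2.14 CPM in Control. The adhesion molecule Vcam1 ran the same way, at 212 and 102, 278 and 127, and 258 and 96.9 CPM, as did Sepp1, the selenium transport protein, at 145 and 76.9, 164 and 86.4, and 301 and 130 CPM. Ccr2 ran the other way, at 37.1 and 152 CPM in R848, 89.7 and 228 CPM in CpG, and 94.6 and 269 CPM in Control. So did Emb, the adhesion protein embigin, at 5.37 and 45.3, 9.06 and 90.9, and 6.46 and 84.7 CPM. The MHC class II-low members thus carried the macrophage marker Timd4 and less Ccr2. The label LysoDC is less sure for them, and the main counts are given with and without them. These genes were picked with results of these data known, and the limit was set after the values were seen. They describe the 2 groups and do not show that the label holds for the MHC class II-high members. A count of 0 Cd4 UMIs does not show that a cell lacks Cd4 RNA at this depth, so members may include cells of the Cd4-positive kind, and how many was not tested.

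**Figure D1:**
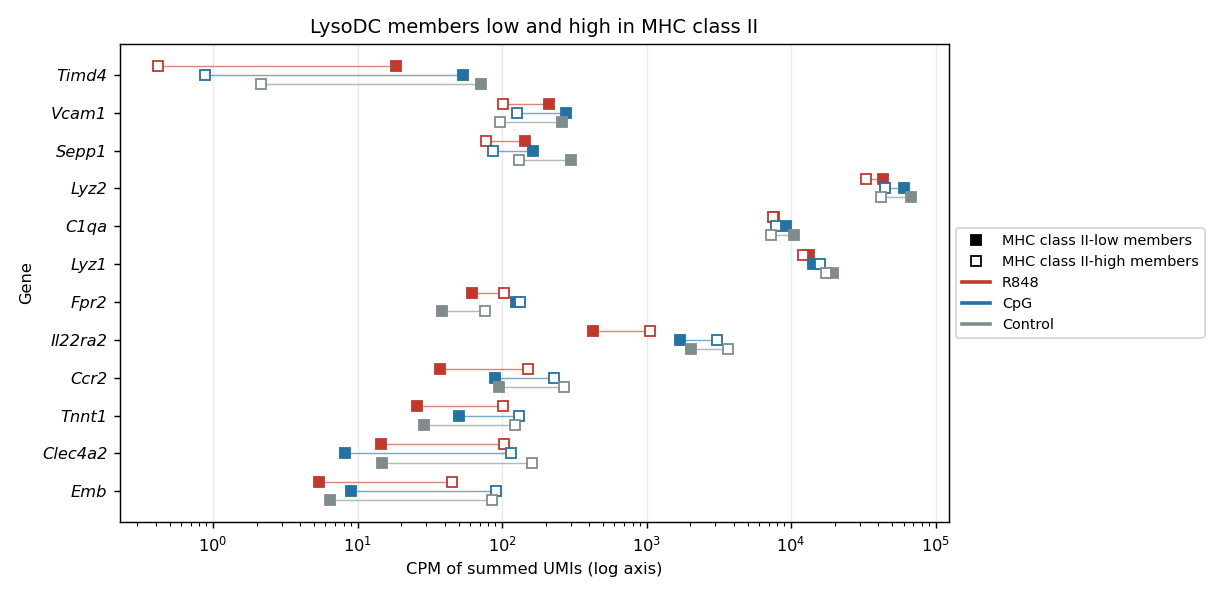
Levels of 12 genes in MHC class II-low members (filled squares) and MHC class II-high members (open squares) of LysoDC in each library, as CPM of summed UMIs on a log axis, with a line joining the pair of 1 library. Timd4, Vcam1 and Sepp1 are higher in the low members of every library, for example Timd4 at 71.1 against 2.14 CPM in Control, and Ccr2, Tnnt1, Clec4a2 and Emb are higher in the high members.

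A gene was counted as higher or lower between libraries where it differed at least 2-fold with 5 CPM added to both levels, reached 50 CPM and 20 UMIs in the higher library, and had a ratio interval that left out 1. With R848 against Control, 126 of 4789 genes measured (at least 20 CPM in 1 of the libraries) were higher, 2.63%, and 47 were lower, 0.981%. With CpG against Control, 101 of 4635 genes were higher, 2.18%, and 18 lower, 0.388%. Counts in the gene lists below are to be set beside these shares, and 1 counted member is not read as a result about its list. Both comparisons use the same Control library, so genes that differ in both are not independent observations. With the MHC class II-low members left out, 118 genes were higher and 44 lower with R848, and 98 higher and 18 lower with CpG. The median log2 ratio over all measured genes was 0.09 for R848 and 0.04 for CpG.

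Chemokines, the secreted proteins that steer leukocytes, held the highest ratio of the R848 comparison. Ccl5 (ENSMUSG00000035042, mm10 chromosome 11, 83525778 to 83530518), which attracts T cells and monocytes, stood at 3176 CPM in R848, 134 CPM in CpG and 9.28 CPM in Control, which is 342-fold (interval 289 to 408) for R848 against Control and 14.4-fold (12.1 to 17.3) for CpG against Control. Folds and ratios with an interval are plain ratios of CPM, and log2 ratios have 5 CPM added to both levels. Free RNA was estimated to give 138, 78.8 and 3.18 CPM of it, an estimate that may be too high. The CpG level is less than 2-fold above that estimate. Its log2 ratio to Control was 2.43 after the estimate was taken away, against 3.28 before. With every cell weighing the same it was 4.19, and in thinned cells 4.27. In R848 74.7% of the thinned cells held Ccl5, in CpG 15.7% and in Control 1.05%, while Xcr1-positive cells, which also express it, held it in 90.5%, 55.2% and 2.11%. Most Ccl5 UMIs in CpG were held by few cells: the top 5% of LysoDC held 79.2% of its UMIs, against 26.3% in R848.

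Of 10 chemokines measured in the R848 comparison, 6 were higher and none lower, with a median log2 ratio of 2.74, and of 8 measured in the CpG comparison 4 were higher and none lower, with a median of 1.96. Cxcl9, which acts on T cells through Cxcr3, stood at 901 CPM in R848, 232 CPM in CpG and 24.5 CPM in Control, and was found in 69.9%, 24.1% and 3.21% of thinned LysoDC. Ccl3 and Ccl4, inflammatory chemokines, stood at 197, 43.2 and 7.05 CPM and at 141, 65.1 and 13.7 CPM in the same order, so that Ccl3 in CpG, with a ratio of 6.14, missed the 50 CPM minimum. The monocyte attractants were divided: Ccl12 stood at 55.2 CPM in R848, 138 CPM in CpG and 5.62 CPM in Control, whereas Ccl8 stood at 56.7 CPM in R848 and at 0.975 and 1.29 CPM in CpG and Control. Ccl8 was found in 3.08% of thinned R848 cells, with up to 35 UMIs in 1 cell. Cxcl16 and Ccl17, also measured, had log2 ratios between -0.23 and 0.34 in both comparisons. Cxcl2, a neutrophil attractant, stood at 11.5 CPM in R848, 48.8 CPM in CpG and 38.5 CPM in Control, with a log2 ratio of -1.40 for R848 against Control, and missed the 50 CPM minimum. Cxcl10, another Cxcr3 ligand and not in the list, was limited by the rule in Control, and at least 3 of its UMIs were held by 19.1% of R848 and 38.2% of CpG members.

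**Figure D2:**
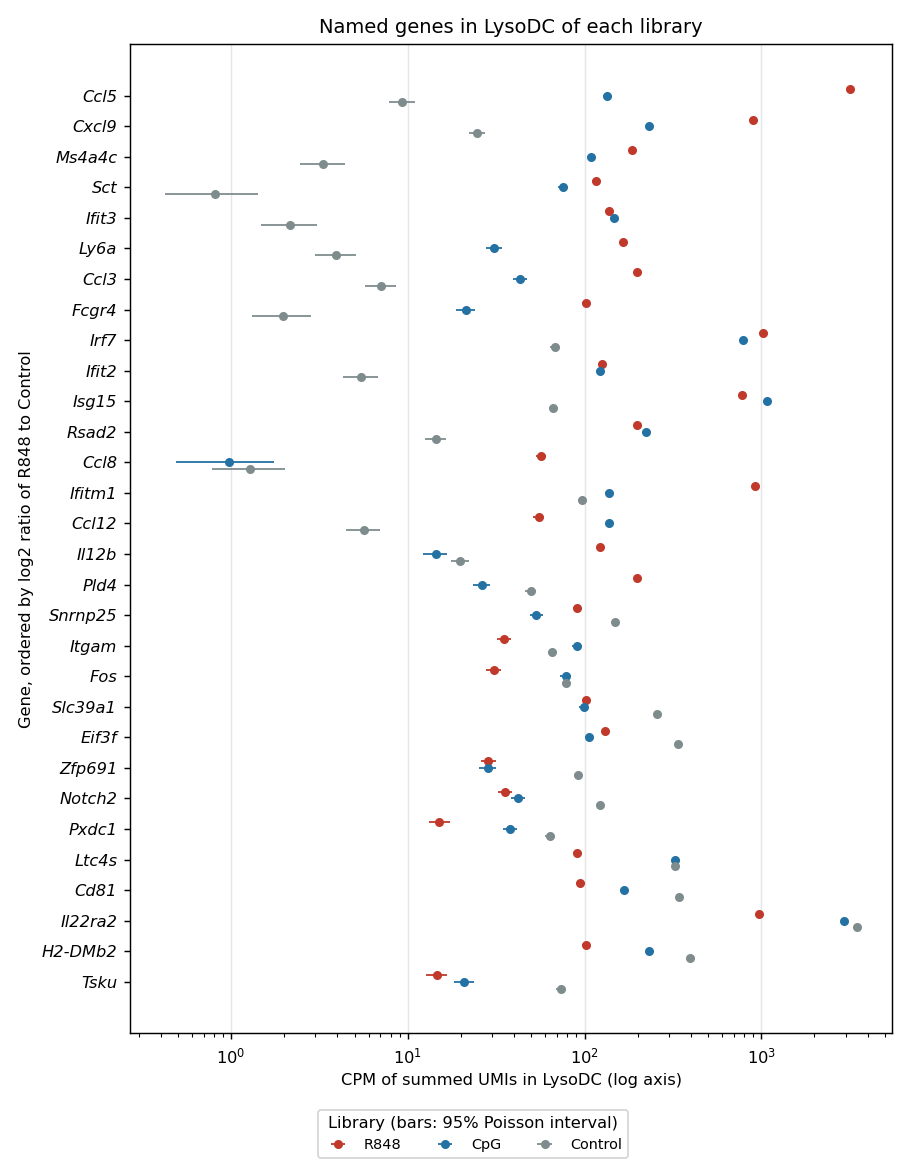
Levels of the genes named by rank in LysoDC of each library, as CPM of summed UMIs on a log axis with 95% Poisson intervals (counting error only), ordered from the highest to the lowest log2 ratio of R848 to Control. Ccl5 at the top stands at 3176 CPM in R848, 134 CPM in CpG and 9.28 CPM in Control, and Il22ra2 near the foot at 966, 2959 and 3489 CPM.

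Type I interferon-stimulated genes, which encode antiviral effectors and the factors that amplify the response, were higher with both agonists. Of 39 members measured, 31 were higher and none lower in R848 (median log2 ratio 2.05) and 31 higher and none lower in CpG (median 2.29). Isg15, a ubiquitin-like modifier, stood at 778 CPM in R848, 1074 CPM in CpG and 66.7 CPM in Control. Irf7, the transcription factor that amplifies type I interferon, stood at 1021, 790 and 67.7 CPM. Ifit3, an antiviral RNA-binding scaffold, stood at 137, 147 and 2.17 CPM, and Rsad2, the antiviral enzyme viperin, at 198, 223 and 14.4 CPM. Ly6a, the surface protein Sca-1, was a member that differed between the agonists, with 165 CPM in R848, 30.7 CPM in CpG and 3.93 CPM in Control. The 8 members that were not counted in R848 included Ly6e, at 2344, 2245 and 1946 CPM, and Mx1, at 49.4, 38.5 and 3.59 CPM, just under the 50 CPM minimum.

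The higher levels were spread over most cells. In cells thinned to 2000 UMIs, the 39 genes summed to a median of 23 UMIs in R848, 24 in CpG and 9 in Control, and 78.8% of R848 and 74.4% of CpG members were above 17 UMIs, the 95th percentile of Control members. The chemokine sum differed in this: 68.6% of R848 members but 12.4% of CpG members were above the Control 95th percentile of 4 UMIs. In R848 this sum was weighted towards Ccl5, with a mean of 6.86 UMIs per thinned cell, and Cxcl9, with 1.88. Ccl3 was found in 22.1% and Ccl8 in 3.08% of thinned R848 cells, so the share does not hold for each chemokine. The Control levels and percentiles depend on the Cxcl10 condition in Control. Without it Ifit3 stood at 5.47 CPM in Control, Ifit1 at 13.2 CPM in place of 8.197 CPM, and Isg15 at 75.8 CPM. The percentiles and the shares above them were not computed without that condition. A further set induced by interferon, the guanylate-binding proteins and immunity-related GTPases, had 2 of 8 measured members higher with R848 (Gbp4 and Irgm1, median 1.05) and 2 of 8 with CpG (Gbp2 and Irgm1, median 0.93).

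**Figure D3:**
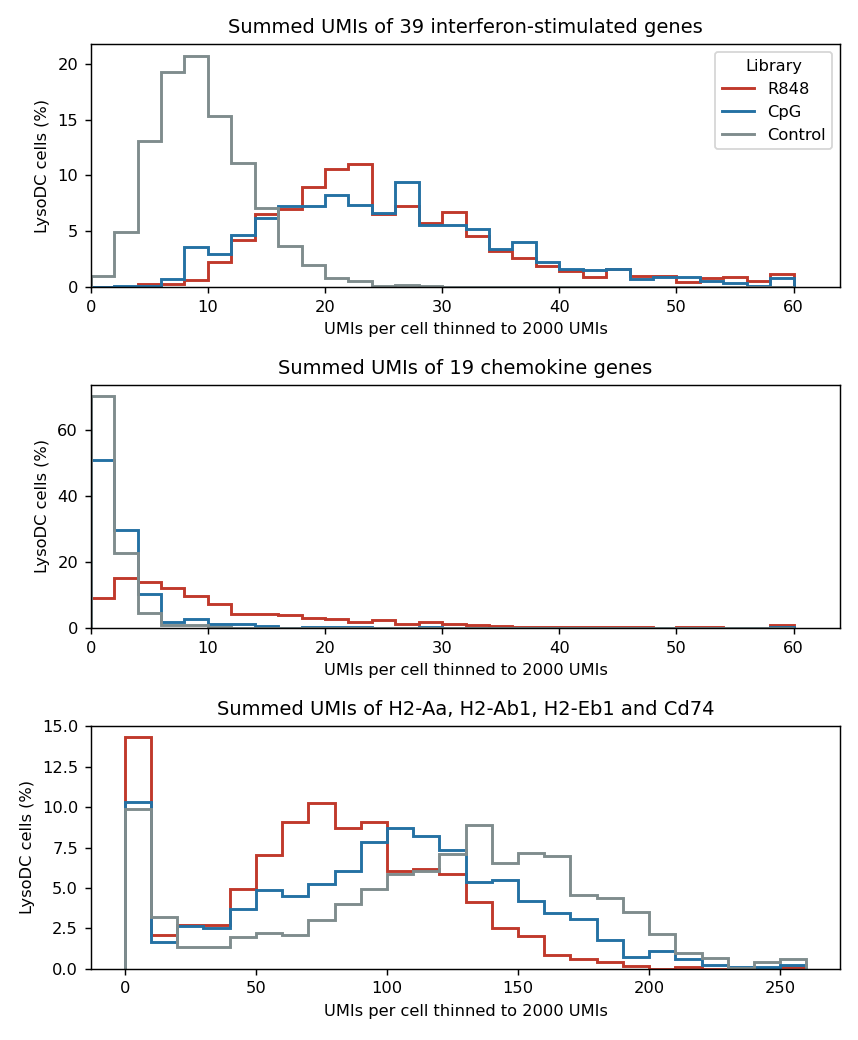
Distribution over LysoDC of the summed UMIs of 3 gene groups in cells thinned to 2000 UMIs, as the percentage of members of each library, where the last bin also holds all higher cells. The interferon-stimulated sum is shifted in R848 and CpG (medians 23 and 24, against 9 in Control). The chemokine sum is shifted mainly in R848 (medians 7, 1 and 1), where it is weighted towards Ccl5. The MHC class II sum has a low and a high group in each library.

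Promoters of listed genes with a sequence were examined, whether or not the gene was higher. The interferon-stimulated and guanylate-binding lists name genes known to be induced by interferon. A high share of an interferon element in them is therefore a description and no independent result. RefSeq promoter sequences of the GRCm38.p6 build, the 250 bases before the first listed start of each gene, were searched on both strands for the interferon-stimulated response element, taken as TTTC, any 2 bases and TTTC again. It was found in 13 of the 28 interferon-stimulated genes with a sequence (46.4%) and in 9 of 9 genes with a sequence from the guanylate-binding protein and GTPase list described above, against 821 of 27025 promoters (3.04%) of all genes and 3.76% of genes measured in LysoDC. Of the genes higher with R848, 21 of 92 with a sequence held it (22.8%), and of those higher with CpG 21 of 72 (29.2%). Both sets include interferon-stimulated genes such as Isg15, Ifit3 and Rsad2, so they are no separate check. Of those lower, 1 of 36 and 0 of 14 did. Of the chemokines with a sequence, 1 of 13 held it. A match describes these letters in this window and says nothing of binding. The following are shown 5′ to 3′ on the gene's strand, with matches in capitals (a match on the opposite strand reads GAAA, any 2 bases and GAAA, and overlapping matches form 1 run): Isg15 (chr4:156200819-156201068, minus strand) with 3 matches, Ifit3 (chr19:34583279-34583528, plus strand) with 2, Rsad2 (chr12:26456453-26456702, minus strand) with 1 and Fcgr4 (chr1:171018676-171018925, plus strand), an Fc receptor gene, with 1, and for contrast Il12b (chr11:44399813-44400062, plus strand), which was high only in R848 and had none.
Isg15: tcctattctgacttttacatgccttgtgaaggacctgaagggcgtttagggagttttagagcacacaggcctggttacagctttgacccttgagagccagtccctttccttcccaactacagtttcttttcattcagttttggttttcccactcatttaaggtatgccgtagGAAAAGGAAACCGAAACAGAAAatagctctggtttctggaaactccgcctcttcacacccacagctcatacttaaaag
Ifit3: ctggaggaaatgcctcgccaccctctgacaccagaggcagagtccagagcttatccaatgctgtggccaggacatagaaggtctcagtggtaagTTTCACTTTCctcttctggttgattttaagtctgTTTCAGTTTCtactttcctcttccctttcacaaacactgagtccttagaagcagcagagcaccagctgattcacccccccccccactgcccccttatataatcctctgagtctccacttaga
Rsad2: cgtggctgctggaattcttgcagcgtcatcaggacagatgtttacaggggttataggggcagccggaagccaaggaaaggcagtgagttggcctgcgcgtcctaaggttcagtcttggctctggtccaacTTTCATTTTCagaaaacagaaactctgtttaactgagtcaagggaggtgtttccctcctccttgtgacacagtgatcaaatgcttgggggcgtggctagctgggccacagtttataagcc
Fcgr4: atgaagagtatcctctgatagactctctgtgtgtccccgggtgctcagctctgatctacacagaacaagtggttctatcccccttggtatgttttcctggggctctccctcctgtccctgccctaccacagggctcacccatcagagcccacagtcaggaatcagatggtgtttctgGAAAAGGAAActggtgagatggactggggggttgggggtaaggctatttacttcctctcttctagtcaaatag
Il12b: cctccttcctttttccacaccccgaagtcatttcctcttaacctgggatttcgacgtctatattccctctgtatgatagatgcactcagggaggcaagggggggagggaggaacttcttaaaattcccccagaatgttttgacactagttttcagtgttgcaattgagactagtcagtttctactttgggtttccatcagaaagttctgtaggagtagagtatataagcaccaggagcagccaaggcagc
The most upstream match began at position -78 from the start in Isg15, -156 in Ifit3, -120 in Rsad2 and -73 in Fcgr4. Irf7, Ifit2, Ms4a4c and Sct, which were high with both agonists, had no match in this window either. The gamma-activated site, written TTCNNNGAA, was found in 5 of the 28 interferon-stimulated genes and in 6 of the 9 of the guanylate-binding list, against 7.18% of all promoters. For Isg15, Ifit3 and Rsad2 the R848 and CpG levels were within 2-fold of each other, whereas Fcgr4 stood at 102 CPM in R848, 21.3 CPM in CpG and 1.96 CPM in Control.

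Cytokine genes did not move as a group: of 9 measured members, 2 were higher and 2 lower with R848 (median 0.66), and of 7 measured with CpG none was higher and 1 lower (median 0.45). Il12b, which encodes the p40 chain of IL-12 and IL-23, stood at 123 CPM in R848, 14.4 CPM in CpG and 19.8 CPM in Control, 6.20-fold (interval 5.47 to 7.04) for R848 against Control. It was detected in 15.5% of thinned R848 members, 1.19% of CpG members and 1.33% of Control members, and the log2 ratio of R848 to Control was 1.78 among members with 0 Ccr7 UMIs, against 2.37 among all. Il18bp, the antagonist of IL-18, stood at 426, 383 and 209 CPM and was counted as higher with R848. Tgfb1, an immunoregulatory cytokine, was lower with both, at 96.0 CPM in R848, 110 CPM in CpG and 246 CPM in Control. Il1b, at 659, 423 and 527 CPM, differed by less than 2-fold in each comparison, as did its antagonist Il1rn, at 394, 345 and 228 CPM.

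Il22ra2 (ENSMUSG00000039760, mm10 chromosome 10, 19621998 to 19634681) separated the agonists. It stood at 966 CPM in R848, against 2959 CPM in CpG and 3489 CPM in Control, a ratio of 0.277 (interval 0.272 to 0.282) for R848 and 0.848 (0.836 to 0.860) for CpG against Control. The lower level was found across the cells: the median thinned member held 1 Il22ra2 UMI in R848, 5 in CpG and 7 in Control. Cd4-positive lysozyme-high cells stood at 399, 1084 and 1580 CPM in the same order. With the MHC class II-low members left out, the log2 ratio of R848 to Control was -1.79, against -1.85 with them.

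MHC class II presentation was lower with R848 in part of its members. Of 13 measured genes none was higher and 2 were lower in R848 (median log2 ratio -0.79), and none was counted in either direction in CpG (median -0.31). H2-DMb2, a chain of the chaperone that loads peptides, stood at 102 CPM in R848, 231 CPM in CpG and 393 CPM in Control, and its partner H2-DMa at 399, 714 and 1014 CPM. The presenting chain H2-Ab1 stood at 7168, 10232 and 11749 CPM and the invariant chain Cd74 at 20003, 24185 and 27156 CPM, both within 2-fold. Ctss, the protease that degrades the invariant chain, stood at 3263, 3510 and 2960 CPM. Within the MHC class II-high members alone, the median sum of 4 genes per 2000 UMIs was 85 in R848, 107 in CpG and 134 in Control. MHC class I presentation had 1 of 21 members higher in each comparison, H2-T22, at 294, 248 and 117 CPM, with medians of 0.40 and 0.36. Over all measured genes 2.63% were higher with R848 and 2.18% with CpG.

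Among 10 costimulatory and checkpoint ligands measured, 2 were higher and none lower with each agonist. Cd86, which costimulates T cells through CD28, was counted in both, at 146 CPM in R848, 130 CPM in CpG and 59.5 CPM in Control. Cd274, the inhibitory ligand PD-L1, was counted with R848, at 138, 87.3 and 44.2 CPM, and Cd40 with CpG, at 66.2, 95.3 and 40.8 CPM. Cd80, the other CD28 ligand, stood at 24.6, 22.4 and 22.8 CPM.

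**Figure D4:**
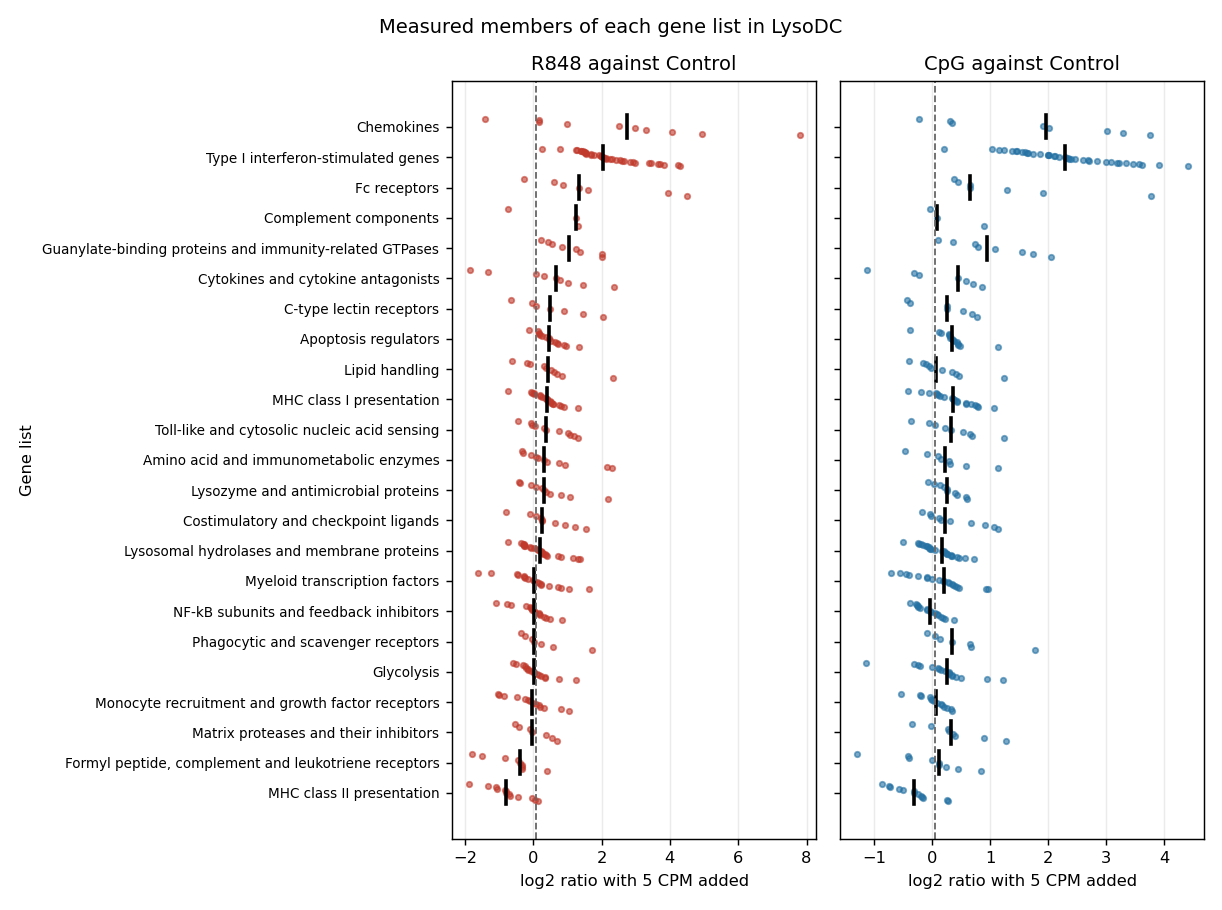
Log2 ratio of each measured member of 23 gene lists in LysoDC (points), the list's median (black bar) and the median of all measured genes (dashed line), for R848 against Control on the left and CpG against Control on the right, with different horizontal scales. The interferon-stimulated genes lie right of the dashed line in both panels (medians 2.05 and 2.29), and MHC class II presentation has the lowest median in both (-0.79 and -0.31).

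Fc receptors and the linked Ms4a family had 4 of 7 measured members higher with R848 (median 1.34) and 2 of 7 with CpG (median 0.65), none lower. Fcgr4, an activating receptor for IgG, is the member printed above, and Fcer1g, the signalling chain it shares with other Fc receptors, stood at 3684 CPM in R848, 1903 CPM in CpG and 1212 CPM in Control. Ms4a4c, a membrane protein that is also among the monocyte markers used here, stood at 185, 109 and 3.32 CPM. C-type lectins had 2 of 7 higher with R848, Clec4e, a receptor for mycobacterial glycolipid, at 174, 106 and 60.02 CPM, and Clec4a1 at 114, 29.7 and 24.1 CPM, and none with CpG. Of 7 phagocytic and scavenger receptors, Axl, a receptor kinase that clears apoptotic cells, was the one counted in each comparison, at 177, 183 and 49.9 CPM.

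Toll-like and cytosolic nucleic acid sensing genes had 1 of 11 measured members higher with R848 and 1 of 9 with CpG, none lower, with medians of 0.39 and 0.31. The shares over all measured genes were 2.63% and 2.18%, and single members are no result about the list. Tlr7 (chromosome X, 167304929 to 167330558), the receptor of R848, stood at 44.7 CPM in R848, 50.5 CPM in CpG and 18.6 CPM in Control, so that it was counted with CpG alone because the R848 level missed the 50 CPM minimum. Tlr9 (chromosome 9, 106222598 to 106226883), the receptor of CpG, stood at 1.27 CPM in R848, 0.886 CPM in CpG and 0.271 CPM in Control. Tlr1, a partner of Toll-like receptor 2, was higher with R848, at 107, 65.1 and 39.9 CPM. Unc93b1, which carries endosomal Toll-like receptors to their compartment, stood at 576, 579 and 558 CPM, and the adaptor Myd88 at 50.2, 62.5 and 37.2 CPM. Of 17 measured NF-kB subunits and feedback inhibitors, the phosphatase Dusp1 was lower with R848, at 38.7 CPM against 71.0 CPM in CpG and 87.7 CPM in Control, and no other member was counted in either comparison.

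Among 19 myeloid transcription factors measured with R848, 1 was higher and 2 lower, and none of 20 was counted with CpG. The AP-1 members were divided: Batf stood at 76.0 CPM in R848, 46.6 CPM in CpG and 34.3 CPM in Control, whereas Jun stood at 28.7, 58.1 and 97.9 CPM and Fos at 30.6, 78.2 and 78.9 CPM. The other members of this list stayed under the 2-fold limit or the 50 CPM minimum in both comparisons. Growth factor and recruitment receptors had Csf1r, the receptor of the macrophage growth factor, lower with R848 at 370, 657 and 757 CPM, Ifngr1, a chain of the interferon gamma receptor, at 258, 357 and 520 CPM, and Tnfrsf1b, a TNF receptor, higher at 56.0, 27.6 and 24.5 CPM.

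Of the amino acid and immunometabolic enzymes, 2 of 11 measured were higher with R848 (Ido1 and Ido2) and 1 of 8 with CpG (Ass1), and of 10 lipid handling genes 1 was higher with R848 (Pltp) and 1 with CpG (Plin2), none lower. Ido1 and Ido2, enzymes of tryptophan breakdown, stood at 70.2 and 50.6 CPM in R848, 11.9 and 6.91 CPM in CpG and 11.9 and 6.23 CPM in Control, and Pltp, a phospholipid transfer protein, at 225, 38.4 and 40.3 CPM. Ass1, the arginine synthesis enzyme, was higher with CpG, at 428 CPM in R848, 494 CPM in CpG and 223 CPM in Control, as was Plin2, a coat protein of lipid droplets, at 188, 248 and 103 CPM. Of 17 and 18 glycolysis genes measured, Hk3, a hexokinase, was counted in each comparison, at 90.9, 88.6 and 35.5 CPM. The complement genes C3 and Cfb were higher with R848, at 62.8, 24.99 and 23.5 CPM and at 399, 294 and 157 CPM. Of the lysosomal list, 1 of 26 members was higher with R848, the growth factor precursor Grn at 643, 422 and 283 CPM, and none of 25 with CpG. That is near the 2.63% of all measured genes that were higher with R848 (2.18% with CpG), so Grn is described as a single gene, as is Hk3. Lyz2, the other lysozyme gene, stood at 34699, 46177 and 45110 CPM.

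The remaining lists had few members counted, and the genes below are described singly. Over all measured genes 2.63% were higher and 0.981% lower with R848, and 2.18% and 0.388% with CpG. Of 11 and 10 antimicrobial genes measured, Wfdc17, a secreted protease inhibitor-like protein, was higher with R848, at 251 CPM against 69.9 CPM in CpG and 50.5 CPM in Control, and none with CpG. The subunits of the phagocyte oxidase were within 2-fold, such as Cybb at 835, 783 and 595 CPM. Among 9 formyl peptide, complement and leukotriene receptor genes, Ltc4s was lower with R848 and none was counted with CpG. Of 16 and 15 apoptosis regulators, Bcl2l11, the death-promoting protein Bim, was higher with R848, at 56.2, 13.8 and 19.3 CPM. Of 7 and 8 matrix proteases and inhibitors, Plaur, the urokinase receptor, was higher with CpG, at 141 CPM in R848, 268 CPM in CpG and 109 CPM in Control.

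Among other genes named by rank, Sct, the gene of the hormone secretin, stood at 116 CPM in R848, 75.5 CPM in CpG and 0.813 CPM in Control. These are 142-fold and 92.9-fold as plain ratios of CPM, from 12 UMIs in Control. The log2 ratios were 4.38 and 3.79 with 5 CPM added. Epithelial markers had the low sums given above, but the source of the Sct UMIs was not tested. Thinned Sct UMIs were found in 14.1% of R848, 7.25% of CpG and 0.140% of Control members. The genes lowest with R848 also included Tsku, a secreted leucine-rich protein, at 14.6 CPM in R848, 20.8 CPM in CpG and 73.5 CPM in Control, Cd81, a tetraspanin, at 94.9, 166 and 344 CPM, and Ltc4s, the leukotriene C4 synthase, at 90.7, 323 and 324 CPM. Pxdc1 was also among them, at 15.1, 37.9 and 63.9 CPM. Those lowest with CpG included the translation factor subunit Eif3f at 131, 106 and 339 CPM, the receptor Notch2 at 35.5, 41.9 and 123 CPM, the zinc finger gene Zfp691 at 28.6, 28.3 and 92.1 CPM, and the zinc transporter Slc39a1 at 102, 99.1 and 257 CPM. The splicing protein gene Snrnp25, at 90.5, 53.4 and 148 CPM, was counted with CpG alone.

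Set directly against each other, R848 was higher than CpG in 35 of 4726 measured genes, 0.741%, and lower in 13, 0.275%. Ccl5 was 23.8-fold higher (interval 22.6 to 25.02), Il12b 8.57-fold (7.29 to 10.1), Pld4, an endosomal nuclease, 7.54-fold (6.69 to 8.54; 197 CPM in R848 and 26.1 CPM in CpG) and Ifitm1, an antiviral membrane protein, 6.74-fold (6.39 to 7.11; 924 CPM in R848 and 137 CPM in CpG). The log2 ratio of Ccl5 was 4.52, and ran from 3.72 with every cell weighing the same to 5.67 with free RNA taken away. Among members with 0 Ccr7 UMIs Il12b stood at 84.2 CPM in R848 and 4.72 CPM in CpG, and Ccl8 had a log2 ratio of 2.65, against 3.37 among all members, and was no longer counted. The chemokine list held 5 of 10 members higher and 1 lower, Ccl12, and the interferon-stimulated list 1 of 39 higher, Ly6a, with a median of -0.15. Ltc4s (ratio 0.280, interval 0.263 to 0.299), Il22ra2 (0.326, 0.320 to 0.333) and the integrin chain Itgam, at 35.2 CPM in R848 and 90.7 CPM in CpG, were lower. Doses, receptors and agonists differ between these groups, so the comparison holds for these 2 treatments as given.

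LysoDC were then set against their closest neighbours in the same libraries, the Cd4-positive lysozyme-high cells (579 in R848, 380 in CpG and 526 in Control). UMIs were summed per class and library and tested with edgeR's quasi-likelihood test, with library as a block and Benjamini-Hochberg adjustment over 10526 genes. At an adjusted p below 0.05, 1427 genes were higher in LysoDC (13.6%) and 1352 lower (12.8%), 232 and 258 of them by at least 2-fold. The Cd4-positive cells had a median of 12165, 12462 and 9807.5 UMIs in R848, CpG and Control, against 12420, 13673 and 10279 in LysoDC. The 10th percentile ran the other way, at 8012, 8257.5 and 6176 UMIs in Cd4-positive cells, against 6228.8, 4980 and 4403.2 in LysoDC. Without the block the counts were 48 and 59, without the CpG library 752 and 809, and in cells thinned to 2000 UMIs 530 and 492. With the MHC class II-low members left out of LysoDC, an alternative chosen after seeing the data, 1475 genes were higher and 1442 lower, 1396 and 1314 of them shared with the counts above. The 3 pairs come from libraries of different treatment, cells of a pair share a library, and MHC class II and CD4 were stains of the sort. The test therefore describes the class difference within these 3 libraries. With 3 pairs per gene, its small p-values are no measure of the spread between libraries alone. Cd4 itself chose the classes, and the given markers Ccr2, Il22ra2, Tnnt1 and Fpr2, chosen with results of these data known, are described without a test: their log2 fold changes were 1.76, 1.35, 2.39 and 1.09, each higher in LysoDC in 3 of 3 libraries.

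MHC class II presentation was the list with the highest median (1.96): 11 of 14 members tested were higher in LysoDC and 1, Ctss, was lower, though not without the CpG library (edgeR adjusted p = 0.138). H2-Aa stood at 6077 CPM in LysoDC and 840 CPM in Cd4-positive cells of R848, at 8505 and 1208 CPM in CpG, and at 10579 and 1595 CPM in Control, with log2 differences of 2.85, 2.81 and 2.73 (SD 0.06 over 3 libraries; edgeR adjusted p = 9.3e-19). Emb stood at 39.5 and 6.54 CPM in R848, 82.9 and 8.03 CPM in CpG, and 75.7 and 9.95 CPM in Control (edgeR log2 fold change 3.03, adjusted p = 7.1e-14). C-type lectins of the DCIR family were likewise higher, Clec4a2 at 90.2 and 15.03, 105 and 15.9, and 143 and 15.9 CPM (edgeR log2 fold change 2.89, adjusted p = 6e-15), with 5 of 10 list members higher and 3 lower. In each of these genes the LysoDC of every library lay above the Cd4-positive cells of every library.

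Cd4-positive cells were higher in Timd4, Igf1, Apoe and the complement genes C2 and C3. Timd4 stood at 3.04 CPM in LysoDC and 45.0 CPM in Cd4-positive cells of R848, at 6.03 and 90.0 CPM in CpG, and at 10.1 and 88.2 CPM in Control (edgeR log2 fold change -3.49, adjusted p = 8.1e-15). The LysoDC level came mostly from the MHC class II-low members, since the MHC class II-high members stood at 0.414, 0.884 and 2.14 CPM in R848, CpG and Control, and without the low members the log2 fold change was -5.90. Igf1, an insulin-like growth factor, stood at 41.4 and 186, 5.94 and 57.4, and 18.4 and 115 CPM in the same order (edgeR log2 fold change -2.48, adjusted p = 1.5e-12), and its edgeR adjusted p was 0.194 without the block. Apoe, the apolipoprotein of lipid transport, was 2-fold lower in LysoDC at 14326 and 28749, 19760 and 39467, and 22195 and 51341 CPM. Complement components had 4 of 6 members lower and 1 higher in LysoDC. Of the 4, C4b and C1ra were barely detected, reaching at most 9.46 and 4.53 CPM in either class. In Control C4b ran the other way, at 0.339 CPM in LysoDC and 0.191 CPM in Cd4-positive cells. Without the block, Apoe (edgeR adjusted p = 0.190) and the complement genes C3 (0.0747), C4b (0.608) and C1ra (0.107) no longer passed, whereas C2 (0.0198) did. In the fit with the block, phagocytic and scavenger receptors had 10 of 15 lower and 1 higher, and lysosomal genes 15 of 26 lower and 1 higher. The interferon-stimulated genes had 23 of 39 lower and 1 higher, with a median of -0.27 and none by 2-fold. Lyz1, one of the genes that chose both classes, had a log2 fold change of 0.03.

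**Figure D5:**
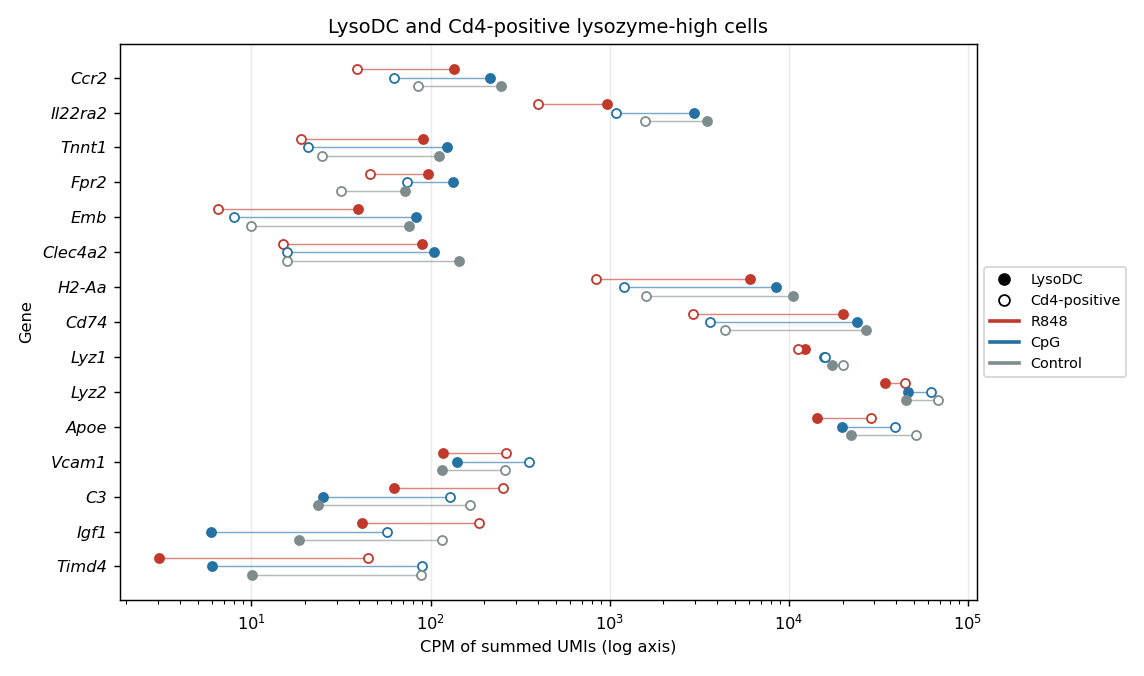
Levels of 15 genes in LysoDC (filled circles) and Cd4-positive lysozyme-high cells (open circles) of each library, as CPM of summed UMIs on a log axis, with a line joining the pair of 1 library. MHC class II genes, Emb and Clec4a2 are higher in LysoDC in every library, for example H2-Aa at 10579 against 1595 CPM in Control, and Timd4, Igf1, C3 and Apoe are higher in Cd4-positive cells.

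The responses of the 2 classes are given side by side without a test of their difference. The log2 ratio of R848 to Control was 7.80 for Ccl5 in LysoDC and 8.74 in Cd4-positive cells, 4.94 and 5.76 for Cxcl9, 2.37 and 3.52 for Il12b, 3.45 and 3.82 for Isg15, and -1.85 and -1.97 for Il22ra2. Per cell, 78.8% of LysoDC and 89.1% of Cd4-positive cells of R848 were above the 95th percentile of Control LysoDC in the interferon-stimulated sum, and 74.4% and 89.2% of CpG.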

How the data were processed

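Droplet libraries of sorted Peyer's patch phagocytes were processed by the submitters with Cell Ranger 2.0.0 against mm10, per the submitters' processing notes. No annotation release is named there. The deposited matrices hold raw UMI counts of 27998 genes per cell barcode, not normalized by the authors. Members and gene lists were chosen with earlier results of these data known. Counts were summed over members and expressed as CPM. Log2 ratios and the 2-fold limit used 5 CPM added to both levels, and folds with intervals are plain ratios of CPM. Level intervals are exact Poisson and ratio intervals exact binomial (Clopper-Pearson), both two-sided at 95%. Named genes were the 8 highest and 6 lowest ratios per agonist, 5 and 5 between agonists, and 6 and 6 against Cd4-positive cells, plus list members and markers, without the rule's genes. edgeR 4.0.16 (R 4.3.3) ran on sums with TMM, its expression filter and library as a block, which pairs both classes of 1 library. Doublets were not removed; an alternative removed the highest scores of simulated doublets (34, 22 and 108 members of R848, CpG and Control). Free RNA was estimated from C1q UMIs in Ccr7-positive cells. Coordinates were looked up in GENCODE for mm10 by gene ID (233 of 233 found), and promoters are RefSeq's, of GRCm38.p6. The computations were tested on simulated data. Python 3.11.15, numpy 2.4.6, scipy 1.17.1, pandas 2.3.3, scikit-learn 1.9.0 and matplotlib 3.10.9 were used.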

Additional observations from a re-analysis of the deposited data

How the results depend on the processing

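Among the named genes, no difference counted as 2-fold and no edgeR call changed direction under any alternative run. Direction was not followed for the other genes. Without a CPM minimum, 235 genes were higher and 91 lower for R848 against Control, 172 and 37 for CpG against Control, and 67 and 28 for R848 against CpG. With a minimum of 100 CPM the counts were 81 and 27, 65 and 9, and 22 and 6, and with 20 CPM added to both levels 28, 10 and 5 genes were lower. Leaving out the MHC class II-low members, chosen after seeing the data, gave 118 and 44, 98 and 18, and 29 and 15, and 1475 and 1442 for LysoDC against Cd4-positive cells. Median-of-ratios size factors gave 110 and 58 for R848 against Control. For LysoDC against Cd4-positive cells, DESeq2 1.42.0 called 711 genes higher and 577 lower, thinned cells 530 and 492, and the fit with no replicate block 48 and 59. In that fit Emb (adjusted p = 0.0204), H2-Aa (0.0235) and Timd4 (0.0401) passed and Igf1 (0.194) did not, by edgeR. With 1 library left out, between 752 and 1297 genes were higher and between 809 and 1238 lower, the fewest without CpG. The cause of these changes was not tested, apart from the minimum, which sets how many genes can be counted. With 1 library per group, no treatment difference can be told apart from a difference between libraries.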
